A study of Mus musculus with 6 samples.

Results

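The 37 genes described here code for the fibroblast growth factors (FGFs) of the mouse, their receptors, an FGF carrier protein, the docking adaptors of the receptors and the feedback inhibitors of the pathway. They were taken by name from 36163 gene names on the array, and every probe whose printed name equals a member was used, which gave 55 probes. RNA came from 6 sorted samples of prostate from 6-day-old male FVB/N mice that carry the transgene Tg 11.5kb-GFP, in which the s-SHIP promoter drives GFP. All 6 samples were Lin- Sca-1+ CD49f+ cells, called LSC, where Lin stands for leukocyte, endothelial and red cell surface markers, and they were untreated. The 3 LSC GFP+ samples held the LSC cells with GFP and the 3 LSC GFP- samples those without it, so both populations share the transgene, the strain, the age and the gate. GFP in this line is also found in vascular smooth muscle cells, on which the study found little or no Sca-1 and CD49f. How many mice went into a sample is not given in the sources used here. The samples are described as independent, and p values measure the spread between these 3 samples of each population.

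FGFs are secreted proteins that bind a receptor tyrosine kinase together with heparan sulphate on the cell surface. The receptor then phosphorylates the adaptor Frs2, Ras and ERK are activated, and ERK signalling turns on Etv factors as well as its own inhibitors, among them the Sprouty and Spred proteins and the phosphatase Dusp6. In the developing prostate, Fgf10 and Fgf7 are known as ligands of the mesenchyme, and the epithelium receives them through a splice form of Fgfr2.

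The probes are stretches of 60 bases, and those on which the results turn are shown in part or whole, 5′ to 3′ as printed in the array design, with mm9 positions. The first 3 are the Fgfr1 probes, shown because they do not move alike. The most 5′ of them lies in the coding sequence for the end of the kinase (chr8:26684061-26684120, plus strand), and the others lie 918 and 1666 bases further along the transcript, beyond the coding sequence (chr8:26685072-26685131 and chr8:26685820-26685879, plus strand). Capitals in the last mark a run of T broken by G.
Fgfr1, coding probe, all 60 bases: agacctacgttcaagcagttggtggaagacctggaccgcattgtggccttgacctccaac
Fgfr1, middle probe, bases 1 to 30: gagacgcccagggtagcatccgttgctata
Fgfr1, distal probe, bases 11 to 40: ggTTTGTTTTTGTTTTTTGTTTGTTTGTTT

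The coding probes of Fgfr4 (chr13:55269212-55269271) and Fgfr3 (chr5:34077856-34078090, across an intron), both on the plus strand, cover nearby stretches of the same end of the kinase and are shown because the receptors differ in their values.
Fgfr4, coding probe: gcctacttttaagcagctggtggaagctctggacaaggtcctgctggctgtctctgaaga
Fgfr3, coding probe: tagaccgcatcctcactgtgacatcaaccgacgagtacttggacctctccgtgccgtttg

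Without gaps, the Fgfr1 and Fgfr4 coding probes share 35 of 58 aligned bases, an identity of 60.3%, and those of Fgfr1 and Fgfr3 share 20 of 35, or 57.1%. The probes of the ligands Fgf10 (chr13:119580365-119580424) and Fgf9 (chr14:58728897-58728956) and of the phosphatase Dusp6 (chr10:98729985-98730044), all on the plus strand, gave the members' lowest p values. The Fgf23 probe (chr6:127030758-127030817, plus strand) is shown for the repeat that is set in capitals.
Fgf10, bases 1 to 30: acagcaaatagtgcagacgttggattctta
Fgf9, bases 1 to 30: atcagttcattcacactggtatcatagccc
Dusp6, bases 1 to 30: catttggtggatgcaacaggttgagaggaa
Fgf23, bases 1 to 30: cCACACACACACACACACACAtacatgtaa

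All values below are log2 signals relative to the 75th percentile of the same array, so a value of 0 is a probe at that percentile, and values of different probes are not comparable as levels. Between 36651 and 42123 of 55681 probes were well above background on an array, as the scanner software marks it, and the 6 arrays correlated at 0.961 to 0.985 across probes. Tested were the 37005 probes that reached this mark on every array of LSC GFP+ cells, of LSC GFP- cells or of both. At the threshold of the study, an unadjusted p of 0.05, LSC GFP+ cells had 1250 probes higher (3.38%) and 1675 lower (4.53%), and 1 probe (0.0027%) passed after Benjamini-Hochberg adjustment in limma. For its lists of genes up or down, the study also asked for a minimum fold change, which was not applied here. Of the genes behind the gate, Ly6a (Sca-1) and Itga6 (CD49f) were well above background on all 6 arrays and differed by log2 values of -0.36 ± 0.46 and 0.25 ± 0.22 (SE), and so was the epithelial gene Epcam, at -0.03 ± 0.21. The threshold alone would call 1850 of the 37005 if no probe changed.

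Of the 55 member probes, 41 probes of 28 genes were tested. By limma, 6 probes of 5 genes rose in LSC GFP+ cells, 14.6% of the member probes tested against 3.38% of all probes, and 3 probes of 3 genes fell, 7.32% against 4.53%. The genes that rose were Dusp6, Fgfr1, Fgfbp1, Fgf21 and Spry2, and those that fell were Fgf10, Fgf9 and Fgfr4. None of the member probes passed after adjustment. The lowest limma adjusted p was 0.0654, for Fgf10, and 0.0782, for Fgf9, among member probes well above background on all 6 arrays. None passed after adjustment in the methods' t-test either. The same held with a block for the replicate number, under which same-numbered samples are compared as pairs. The values of the populations did not overlap for 10 member probes that were higher in LSC GFP+ cells (24.4%, against 6.61% of all tested probes) and 4 that were lower (9.76%, against 5.66%). The median log2 difference, LSC GFP+ minus LSC GFP-, was 0.11 over the 41 member probes and -0.00436 over all tested probes. Of the called probes, those of Fgf10 and Fgf21 passed the filter through 1 population only. So did 4 uncalled probes, of Fgf12, Fgf13, Fgf14 and Fgf15. A stricter filter, which asks for the mark on each of the 6 arrays, kept 35 member probes. Of these, 5 were higher and 2 lower by limma. The stricter filter kept 60.8% of the 55681 probes on the array, of which 1168 were higher and 1336 lower. The study selected the genes it discusses on these same samples, so the differences given here are not independent evidence for such a selection.

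**Figure D1:**
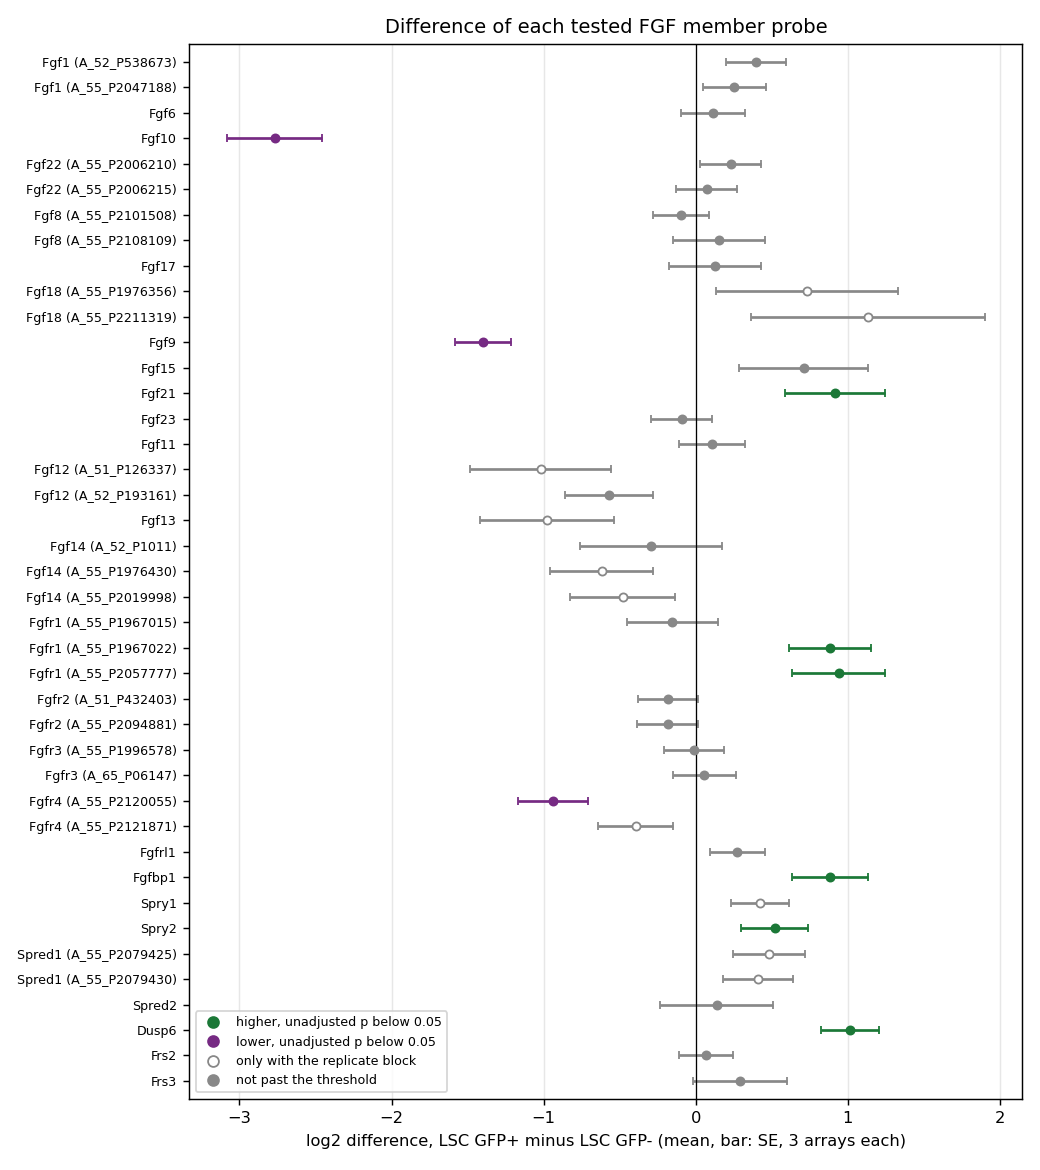
Log2 difference in signal, LSC GFP+ minus LSC GFP-, of each of the 41 tested member probes (x axis; points are differences of means of 3 arrays each, bars the SE), in the order of the members' roles from ligands at the top to inhibitors and adaptors at the bottom. Most points lie within 0.5 of 0, with Fgf10 (-2.77, a fitted value because it was not well above background in LSC GFP+ cells) and Fgf9 (-1.40) farthest to the left, and open points passed the threshold only with the replicate block.

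Among the secreted ligands, Fgf10, which in the prostate bud signals from mesenchyme to epithelium, had the largest fitted log2 difference of the members tested, except after normexp background correction, where Fgf9 had the largest. Its signal was -2.20, -3.10 and -2.59 in LSC GFP- replicates 1, 2 and 3, well above background on all 3 arrays. In LSC GFP+ cells it was -5.90, -5.11 and -5.18 and not well above background on any array. The populations lay far apart. Against the lowest signals called well above background on the LSC GFP+ arrays, Fgf10 was 3.45-fold higher in LSC GFP- cells. That ratio is not a lower limit, since the difference after normexp correction was smaller. The fitted log2 difference was -2.77 ± 0.31 (SE, limma adjusted p = 0.0654, unadjusted p = 2.24e-05), and after normexp it was -0.83 (limma unadjusted p = 0.000353), against -1.13 for Fgf9. These p values rest on LSC GFP+ signals that were not well above background, and the probe passed the filter through LSC GFP- cells only. The probe has 10 spots on each array, whose mean was used.

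Fgf9, a ligand with a role in epithelium and mesenchyme of several organs, was measured well above background on all 6 arrays. Its values were -1.48, -1.65 and -1.48 in LSC GFP+ replicates 1, 2 and 3 and -0.23, -0.01 and -0.17 in LSC GFP- cells. Each population was tight, with SDs of 0.0967 and 0.116, and they were 2.63-fold apart, Fgf9 being lower in LSC GFP+ cells by a log2 difference of -1.40 ± 0.18 (SE, limma adjusted p = 0.0782, unadjusted p = 7.11e-05). Leaving out any single array kept the difference between -1.44 and -1.33.

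Markers of stroma and smooth muscle moved with Fgf10 and Fgf9. Of 14 stromal and mesenchymal markers tested, 8 fell in LSC GFP+ cells and 2 rose, and of 8 smooth muscle markers 7 fell and none rose, by the brightest tested probe of each gene. Over the brightest probes of all 25545 genes tested, 3.39% were higher and 4.29% lower. The platelet-derived growth factor receptor Pdgfra, a marker of fibroblasts, differed by -2.36 ± 0.65 and the collagen gene Col1a1 by -2.18 ± 0.37 (log2, SE), whereas Vim, at -0.80 ± 0.47, and Pdgfrb, at -1.15 ± 0.68, did not pass. Acta2 differed by -2.13 ± 0.42, Myh11 by -2.01 ± 0.41, Tagln by -0.86 ± 0.26 and Cnn1 by -1.51 ± 0.27, all of them genes of the contractile apparatus. The matrix genes Dcn, at 1.19 ± 0.27, and Fbln1, at 0.90 ± 0.20, went the other way and are named after their values were seen. Of the stromal genes that fell, Pdgfra, Zeb2 and Twist1 passed the filter through LSC GFP- cells only, and Zeb2 and Twist1 are named for that reason. Pdgfra was well above background on 2 arrays of LSC GFP+ cells and Twist1 on none.

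The summed signal of the smooth muscle markers, in multiples of the 75th percentile, ranged from 7.52 to 11.2 in LSC GFP+ samples and from 21.3 to 41.5 in LSC GFP- samples. That of the stromal markers ranged from 33.1 to 39.1 and from 34.3 to 78.6. No marker of either list was below background on all arrays. The CD49f gate is meant to leave stromal cells out of LSC cells, and in sorted bulk samples fewer cells of a type and less RNA per cell cannot be told apart. Of the markers of other cells, none of 5 endothelial and none of 8 leukocyte genes tested passed the threshold, while 7 of 12 basal epithelial markers rose and none fell, Krt14 by 1.18 ± 0.22. Of 12 luminal epithelial markers 3 rose and 1 fell. All 8 tested urothelial and seminal vesicle markers were lower in mean in LSC GFP+ cells, of which the secretory protein gene Svs5, at -2.16 ± 0.44 (log2, SE), passed the threshold. The Svs5 probe passed the filter through LSC GFP- cells only. With the replicate block 4 of the urothelial and seminal vesicle markers passed, and 8.07% of all tested probes were lower. Their summed signal ranged from 4.72 to 13.5 in LSC GFP+ samples and from 10.2 to 17.9 in LSC GFP- samples. The part of these cell types in the Fgf10 and Fgf9 results was not tested.

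**Figure D2:**
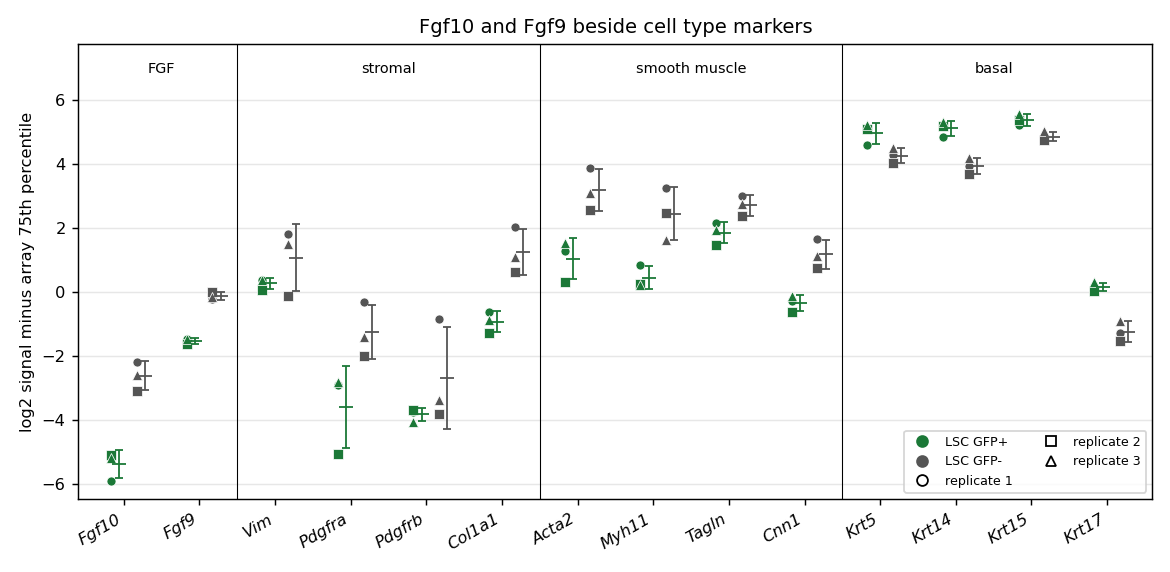
Log2 signal minus the array's 75th percentile (y axis) of Fgf10 and Fgf9 and of the first 4 genes of the stromal, smooth muscle and basal marker lists; each symbol is 1 array, its shape the replicate, and the bars give the mean ± SD of 3 arrays. LSC GFP- samples lie above LSC GFP+ samples for Fgf10, Fgf9, Pdgfra, Col1a1 and the 4 smooth muscle genes, and below them for Krt5, Krt14, Krt15 and Krt17.

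Fgf7, the other mesenchymal ligand of the epithelial receptor, was not tested, since its probe was well above background on 1 array, of LSC GFP- cells. Its signals were -6.25, -4.72 and -6.57 in LSC GFP+ replicates 1, 2 and 3 and -4.02, -4.98 and -4.22 in LSC GFP- cells, and the populations overlapped. Fgf22, of the same subfamily, was well above background on all 6 arrays by both of its probes and differed by 0.23 ± 0.20 and 0.07 ± 0.20 (log2, SE), neither past the threshold. Fgf3 was well above background on 2 arrays and was not tested.

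Of the other paracrine ligands, Fgf1, which binds all receptors, had a probe near the start of the transcript whose signals did not overlap between the populations. The values were -1.12, -1.22 and -0.92 in LSC GFP+ cells and -1.34, -1.45 and -1.66 in LSC GFP- cells. A log2 difference of 0.39 ± 0.20 (SE, limma unadjusted p = 0.08) did not pass the threshold. It did pass in the methods' t-test, computed for each probe alone, at unadjusted p = 0.0374, and in limma after quantile normalization at unadjusted p = 0.0431. The second Fgf1 probe, toward the 3′ end, differed by 0.25 ± 0.21 and overlapped. Fgf2 had one probe well above background on 3 of 6 arrays and another on none, so neither was tested.

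Fgf18, a ligand of the Fgf8 subfamily, varied more between replicates than between populations. Its overlapping probes gave -1.32, -3.26 and -3.13 (A_55_P1976356) and 1.10, -0.86 and -0.67 (A_55_P2211319) in LSC GFP+ replicates 1, 2 and 3. In LSC GFP- cells they gave -2.31, -3.67 and -3.94, and 0.11, -1.15 and -2.80. Replicate 1 was the highest in both populations, and in every replicate the LSC GFP+ sample lay above its LSC GFP- partner. The log2 differences of 0.73 ± 0.60 and 1.13 ± 0.77 (SE) did not pass in limma, with unadjusted p = 0.256 and unadjusted p = 0.18, and did with the replicate block, at unadjusted p = 0.00724 and unadjusted p = 0.0264. The probes overlap in part and are not independent.

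The other Fgf8 subfamily ligands did not pass. Fgf8 had 2 tested probes at -0.10 ± 0.18 and 0.15 ± 0.30, and Fgf17 differed by 0.13 ± 0.30. Fgf6 was well above background on all arrays by its distal probe, at 0.11 ± 0.21, and on none by the other. Fgf4 and Fgf16 were well above background on no array, Fgf20 on 1 array by 1 of its 2 probes, and Fgf5 on 3, so that these ligands were not tested.

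The endocrine ligands act at a distance and need Klotho proteins as co-receptors. Fgf21, a ligand best known from liver, had signals of -3.26, -3.99 and -3.49 in LSC GFP+ cells and of -5.14, -4.28 and -4.06 in LSC GFP- cells, where it was well above background on 2 of 3 arrays. The highest LSC GFP- value lay just below the lowest LSC GFP+ value. Fgf21 rose by a log2 difference of 0.91 ± 0.33 (SE, limma adjusted p = 0.484, unadjusted p = 0.0246), but the call was lost without LSC GFP+ replicate 1 (unadjusted p = 0.0773), without LSC GFP- replicate 1 (unadjusted p = 0.0883) or without LSC GFP+ replicate 3 (unadjusted p = 0.0585), all by limma. After normexp correction the difference was 0.24 (limma unadjusted p = 0.161). The call was also lost in the methods' t-test (unadjusted p = 0.0806) and with the intensity trend in limma. Fgf15, the gut hormone of bile acid control, reached the mark of well above background on 2 arrays of LSC GFP- cells, differed by 0.71 ± 0.42 and did not pass.

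The 2 probes of Fgf23, the bone hormone of phosphate control, gave unlike readings. The probe with the CA repeat lay between 7.47 and 7.88 on all 6 arrays, with a difference of -0.09 ± 0.20, whereas the other was well above background on none. Across the array, 168 of 55681 probes hold the 12 bases ACACACACACAC on either strand (0.302%), and all 168 of them were well above background on all 6 arrays, compared with 60.8% of all probes. The Fgf23 probe was the only member probe among them, and none of the 168 passed the threshold between the populations. A reading of Fgf23 expression was not taken from this probe.

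The intracellular FGF homologous factors are not secreted and are known as partners of voltage-gated sodium channels. All 7 of their probes were tested and none passed in limma without a block. Fgf13, which in neurons also binds microtubules, had values of -3.78, -5.14 and -3.94 in LSC GFP+ cells and -2.58, -3.71 and -3.64 in LSC GFP- cells, and reached the mark of well above background on 2 arrays of LSC GFP+ cells. The values did not overlap, and the log2 difference was -0.98 ± 0.44 (SE, limma unadjusted p = 0.0573, with the replicate block unadjusted p = 0.012). It also passed without LSC GFP+ replicate 1, at -1.23 (limma unadjusted p = 0.0369).

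Fgf12 and Fgf14 were lower in LSC GFP+ cells in mean by every one of their 5 probes. The Fgf12 probes differed by -1.02 ± 0.46 (A_51_P126337) and -0.57 ± 0.29, and the mean over both passed, at -0.80 (limma unadjusted p = 0.0185). The Fgf14 probes differed by -0.62 ± 0.34 (A_55_P1976430), -0.48 ± 0.35 (A_55_P2019998) and -0.29 ± 0.47 (A_52_P1011). The probes A_51_P126337 and A_52_P1011 each reached the mark of well above background on 1 array of LSC GFP+ cells. With the replicate block, the first Fgf12 probe (unadjusted p = 0.0257) and the first and second Fgf14 probes (unadjusted p = 0.0395 and unadjusted p = 0.0161) passed in limma. Neuronal and glial markers moved in the same direction: all 8 tested were lower in mean in LSC GFP+ cells, 4 of them past the threshold with the block and none without it, and their part in these values was not tested. Their summed signal ranged from 255 to 337 in LSC GFP+ samples and from 251 to 390 in LSC GFP- samples, a sum in which Snap25 and Elavl4, the brightest of the list, differed by -0.02 ± 0.20 and -0.10 ± 0.30 (log2, SE). The 4 genes past the threshold with the block were Sox10, Tubb3, Stmn2 and Nefl. They differed by log2 values of -0.66 ± 0.40, -1.30 ± 1.01, -2.63 ± 1.75 and -2.19 ± 1.69 (SE without the block), a wide spread between samples. Of these 4, Stmn2 passed the filter through LSC GFP- cells only. Of all tested probes, 8.07% were lower with the block. Fgf11 differed by 0.11 ± 0.22.

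Among the receptors, Fgfr1 rose in LSC GFP+ cells by 2 of its 3 probes. The coding probe gave 3.55, 3.26 and 2.87 in LSC GFP+ replicates 1, 2 and 3 and 2.76, 2.18 and 2.10 in LSC GFP- cells, with no overlap and a log2 difference of 0.88 ± 0.27 (SE, limma adjusted p = 0.354, unadjusted p = 0.0113). The middle probe gave 0.37, -0.01 and -0.58 against -0.64, -1.003 and -1.39, again without overlap, and differed by 0.94 ± 0.30 (limma adjusted p = 0.408, unadjusted p = 0.0152). In both, replicate 1 was highest and replicate 3 lowest in either population, and each LSC GFP+ sample exceeded its LSC GFP- partner. The call of the middle probe was lost in the methods' t-test (unadjusted p = 0.055, a fit to each of all probes) and in limma without LSC GFP- replicate 3 (unadjusted p = 0.0533).

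The distal Fgfr1 probe, the brightest of the 3, gave 6.41, 6.40 and 5.81 in LSC GFP+ cells and 6.40, 6.82 and 5.86 in LSC GFP- cells. The populations overlapped, with a log2 difference of -0.15 ± 0.30 (SE, limma unadjusted p = 0.623). Within an array, the coding probe minus the distal probe was higher in LSC GFP+ cells by 1.03 and the middle probe minus the distal probe by 1.09, on the log2 scale. Both ratios separated the populations completely, with an exact two-sided permutation p = 0.1, the smallest that 3 against 3 arrays allow. The coding probe minus the middle probe differed by -0.06 between the populations (exact permutation p = 0.7). The mean over all 3 probes differed by 0.56 (limma unadjusted p = 0.0717), so whether Fgfr1 is called depends on the probe. The distal sequence shown above holds the run TTTGTTTGTTTG, found on either strand in 59 of 55681 probes (0.106%), of which 53 (89.8%) were well above background on all 6 arrays.

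**Figure D3:**
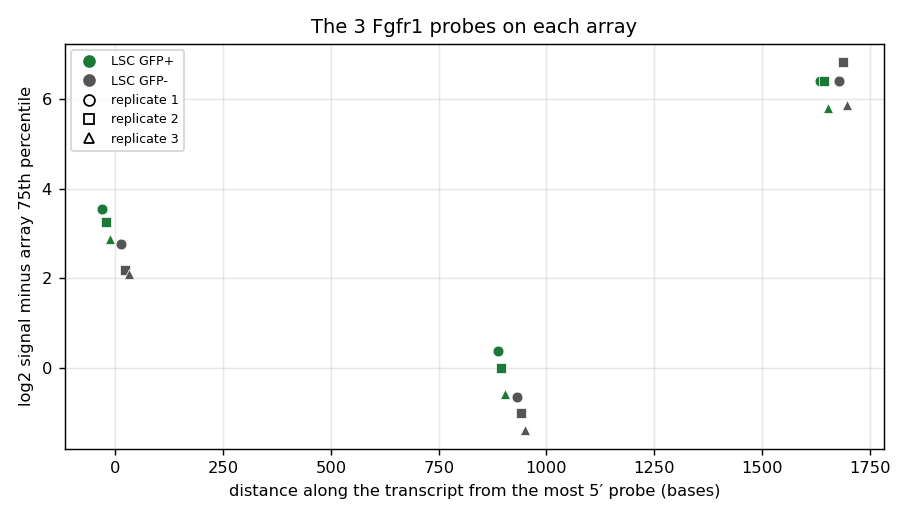
Log2 signal minus the array's 75th percentile (y axis) of the 3 Fgfr1 probes against their distance along the transcript from the most 5′ probe in bases (x axis); each symbol is 1 array, its shape the replicate, and symbols of an array are set slightly apart around the probe's distance. LSC GFP+ samples lie above their LSC GFP- partners at 0 and 918 bases, and the populations overlap at 1666 bases.

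Fgfr2, the receptor of Fgf7 and Fgf10 in epithelium, did not differ past the threshold. Its 2 overlapping probes lie toward the 3′ end and do not tell the epithelial and mesenchymal splice forms apart. They gave 0.66, 0.88 and 0.80 (A_51_P432403) and 2.90, 3.10 and 2.89 (A_55_P2094881) in LSC GFP+ cells, and 0.82, 1.21 and 0.85 and 3.00, 3.38 and 3.06 in LSC GFP- cells. The populations overlapped on both, and the log2 differences were -0.18 ± 0.20 each (SE, limma unadjusted p = 0.39 and unadjusted p = 0.383). Fgfr3, a receptor that restrains growth in cartilage, differed by 0.06 ± 0.21 and -0.01 ± 0.20.

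Fgfr4, the receptor through which Fgf15 acts on the liver, fell by its distal probe. That probe gave -3.44, -4.09 and -4.00 in LSC GFP+ cells and -2.77, -3.04 and -2.91 in LSC GFP- cells, without overlap, a log2 difference of -0.94 ± 0.23 (SE, limma adjusted p = 0.237, unadjusted p = 0.00391) that was -0.39 after normexp correction (limma unadjusted p = 0.0243). On the arrays of LSC GFP+ replicates 2 and 3 the distal probe lay close to the lowest signals called well above background, which were -4.27 and -4.32. The coding probe gave -0.62, -0.78 and -0.13 against -0.29, -0.24 and 0.18, with overlap. It differed by -0.39 ± 0.25, not past the threshold in limma (unadjusted p = 0.15) but past it with the replicate block (unadjusted p = 0.0342). Fgfrl1, a receptor that lacks the kinase, gave 1.78, 1.81 and 1.68 against 1.40, 1.42 and 1.63. Its populations did not overlap, and the difference of 0.27 ± 0.18 (limma unadjusted p = 0.174) passed only in the methods' t-test (unadjusted p = 0.0301, a fit to each of all probes).

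Fgfbp1, a secreted carrier that frees FGFs from the matrix, rose in LSC GFP+ cells. It gave 1.38, 2.03 and 2.04 in LSC GFP+ replicates 1, 2 and 3 and 0.73, 0.93 and 1.14 in LSC GFP- cells. All LSC GFP+ values exceeded all LSC GFP- values, and the log2 difference was 0.88 ± 0.25 (SE, 1.84-fold, limma adjusted p = 0.311, unadjusted p = 0.00766).

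Of the 6 tested probes of the feedback inhibitors, 2 rose in LSC GFP+ cells and 0 fell, against the 3.38% and 4.53% of all tested probes given above. Dusp6, the phosphatase that dephosphorylates ERK and is itself an ERK target, gave 3.57, 3.61 and 3.39 in LSC GFP+ replicates 1, 2 and 3 and 2.55, 2.37 and 2.62 in LSC GFP- cells. The lowest LSC GFP+ value lay well above the highest LSC GFP- value. Dusp6 rose 2.02-fold, a log2 difference of 1.01 ± 0.19 (SE, limma adjusted p = 0.129, unadjusted p = 0.000684), and the difference stayed between 0.94 and 1.08 in the alternatives run.

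Of the Sprouty genes, which block Ras activation downstream of the receptor, Spry2 gave 0.19, 0.65 and 0.16 in LSC GFP+ cells and -0.40, -0.04 and -0.12 in LSC GFP- cells. The populations did not overlap. Spry2 rose by a log2 difference of 0.52 ± 0.22 (SE, limma adjusted p = 0.619, unadjusted p = 0.0466), a call lost without any single array other than LSC GFP+ replicate 1, with limma p values between 0.0507 and 0.166, and in the methods' t-test (unadjusted p = 0.052). It was also lost when the filter asked for the mark on at least 1 array only, and with no filter on dim probes. Spry1 lay between -0.12 and 0.07 in LSC GFP+ cells and gave -0.54, -0.52 and -0.25 in LSC GFP- cells, again without overlap. Its difference of 0.42 ± 0.19 (limma unadjusted p = 0.0575) passed with the replicate block (unadjusted p = 0.031), after quantile normalization (unadjusted p = 0.0408) and in the methods' t-test (unadjusted p = 0.0168). Spry3 and Spry4 were well above background on 0 and 1 of 6 arrays and were not tested.

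Spred1, a relative of the Sprouty proteins that brings neurofibromin to the membrane, gave 0.03, 0.48 and -0.27 in LSC GFP+ cells and -0.41, -0.32 and -0.47 in LSC GFP- cells by one probe. The values did not overlap, with a log2 difference of 0.48 ± 0.24 (SE, limma unadjusted p = 0.0767), and the second probe, which overlapped, differed by 0.41 ± 0.23. With the replicate block they passed in limma at unadjusted p = 0.0366 and unadjusted p = 0.0278. Spred2 differed by 0.14 ± 0.37. The docking adaptors of the receptors did not pass, Frs2 at 0.07 ± 0.18 and Frs3 at 0.29 ± 0.31.

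**Figure D4:**
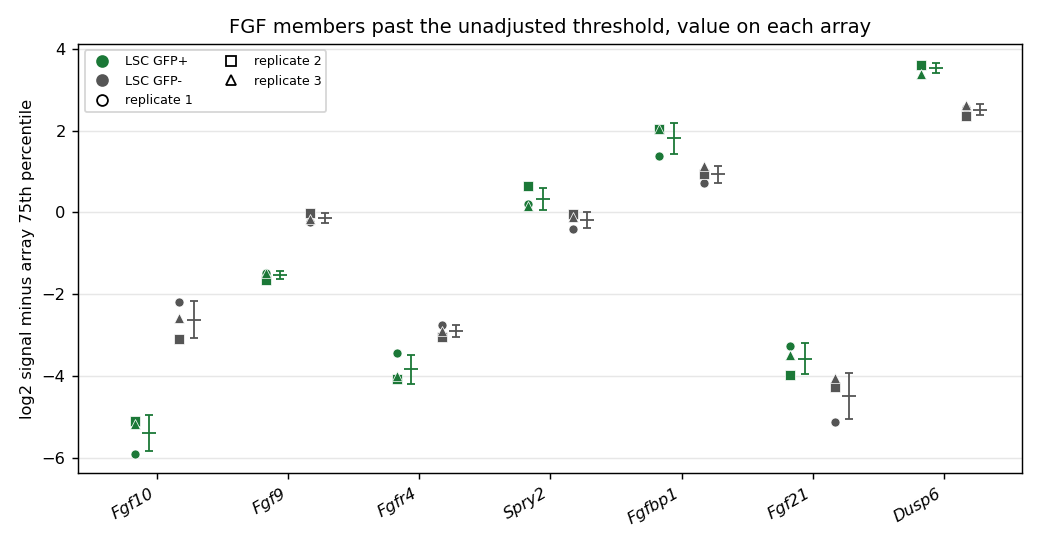
Log2 signal minus the array's 75th percentile (y axis) of the 7 members other than Fgfr1 with a probe past the unadjusted threshold, ordered by difference; each symbol is 1 array, its shape the replicate, and bars give the mean ± SD of 3 arrays. The LSC GFP+ and LSC GFP- arrays do not overlap for any of them, with a wide gap for Fgf10, Fgf9 and Dusp6 and a narrow one for Spry2 and Fgf21.

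Under the replicate block, limma counts over the members were 11 higher (26.8%, against 6.74% of all tested probes) and 8 lower (19.5%, against 8.07%), which added 10 probes and lost none. The lowest adjusted p of a member was then 0.0605, for Fgf9.

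A list of 48 other genes of the pathway was examined, from Klotho co-receptors and heparan sulphate genes to Ras, ERK and the Etv targets, of which 44 were tested. Of these, 6 rose in LSC GFP+ cells (13.6%, against 3.39% of all genes) and 1 fell (2.27%, against 4.29%), and their median log2 difference was 0.18. Among the transcriptional targets, Etv4 rose by 0.61 ± 0.21 (log2, SE, limma adjusted p = 0.462, unadjusted p = 0.021), while Etv5, at 0.25 ± 0.19, and Etv1, at 0.02 ± 0.24, did not pass.

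The other genes of the list that passed carry, make or trim heparan sulphate. Ext1, of the enzyme that polymerises the chain, rose by 1.09 ± 0.19 (log2, SE, limma adjusted p = 0.109, unadjusted p = 0.000415) with values of 0.77, 0.57 and 0.52 against -0.43, -0.59 and -0.39. Hs6st2, a sulphotransferase, rose by 1.12 ± 0.26, and the core proteins Gpc3 by 1.11 ± 0.25, Gpc6 by 0.64 ± 0.19 and Sdc1, which the study names from these samples, by 0.64 ± 0.20. Sulf2, an enzyme that removes sulphate groups from the chain outside the cell, fell by a log2 difference of -1.36 ± 0.23 (limma adjusted p = 0.107, unadjusted p = 0.000329), with values of -3.32, -2.92 and -2.80 in LSC GFP+ cells and -1.54, -1.90 and -1.4998 in LSC GFP- cells. None of these overlapped between the populations. The related Sulf1 differed by -0.43 ± 0.25 and Hs2st1 by -0.04 ± 0.25, neither past the threshold.

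Of the Ras and ERK genes of the list and their phosphatases, none passed without a block, with log2 differences of 0.41 ± 0.19 for the adaptor Grb2 and 0.69 ± 0.31 for the phosphatase Dusp4 (SE). With the replicate block 11 of the 44 list genes tested were higher and 1 lower in limma. Of all tested probes, 6.74% were then higher and 8.07% lower, and a share over genes was not computed. The added genes were Grb2 (unadjusted p = 0.0332), Dusp4 (unadjusted p = 0.0311), the receptor partner Flrt2 (unadjusted p = 0.0429), the sulphotransferase Ndst1 (unadjusted p = 0.0196) and the core protein Sdc4 (unadjusted p = 0.0187). Klb, Kl and Spred3 were not tested because their probes were too dim, and no probe was printed with the name Hras.

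**Figure D5:**
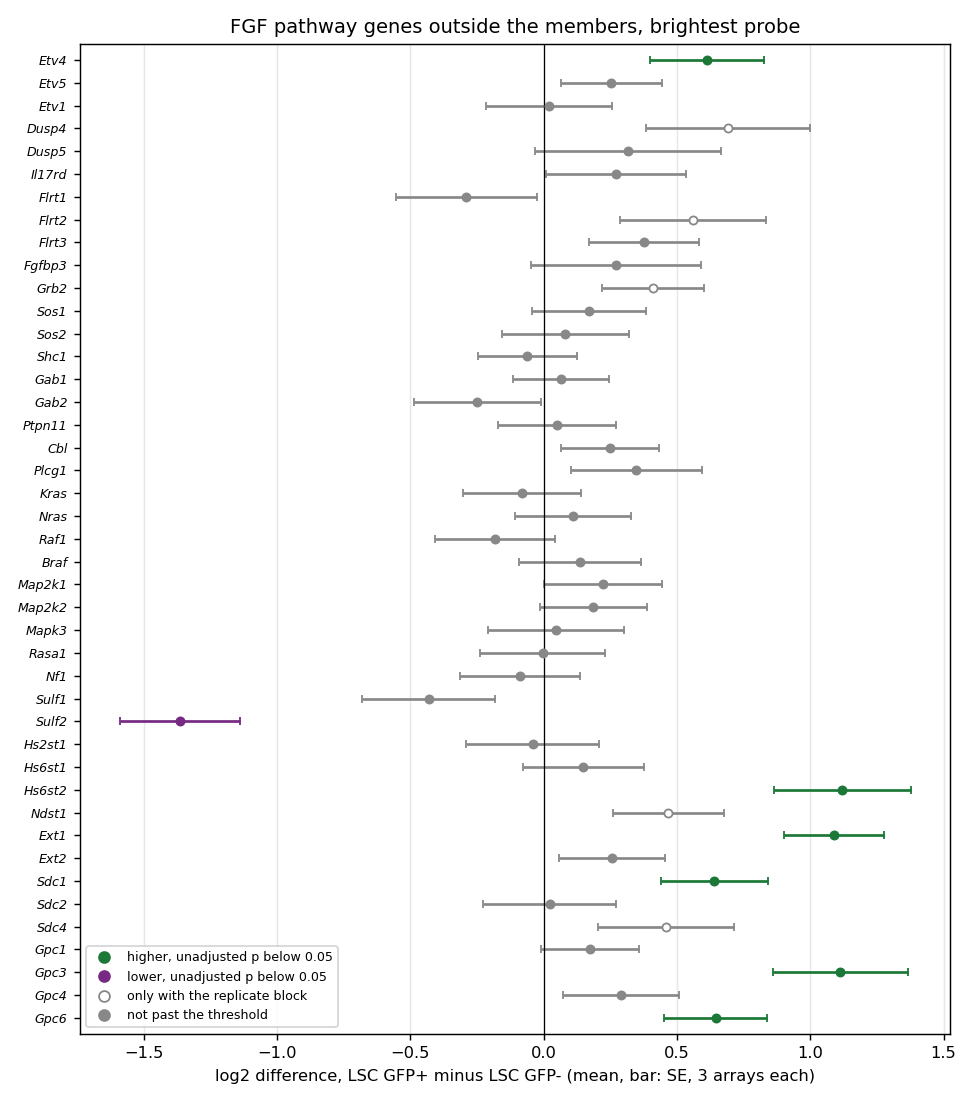
Log2 difference in signal, LSC GFP+ minus LSC GFP-, of the brightest tested probe of pathway genes outside the members (x axis; points are differences of means of 3 arrays each, bars the SE). Green points rose and the purple point fell at the unadjusted threshold; the genes of Ras and ERK in the middle of the plot lie near 0, and Hs6st2, Gpc3 and Ext1 lie farthest to the right.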

How the data were processed

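RNA of 3 LSC GFP+ and 3 LSC GFP- samples was amplified and hybridised in 1 colour (Cy3) to SurePrint G3 Mouse arrays. Per the file headers, the deposited intensity values are processed signals of Feature Extraction 11.0.1.1 on the linear scale, background-subtracted and not normalized between arrays; the labels name version 10.7.3.1. The deposited flags mark outlier spots and spots well above background. The deposited table of the whole series holds the same intensity values rounded and was run as an alternative. All 6 arrays share 1 slide and 1 scan day, so batches could not be compared.

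Outlier spots (123 to 154 per array) were left out, log2 values had the array's 75th percentile subtracted, and spots of a probe were averaged. No spot was saturated. The test was the moderated linear model of limma 3.58.1 (lmFit, eBayes; R 4.3.3), two-sided, with Benjamini-Hochberg adjustment over all 37005 tested probes, and a script was tested on simulated data. The study's methods name Student's test at p of 0.05 without adjustment, which was run as an alternative. Further alternatives were normexp correction (offset of 50), quantile and median scaling, other filters, an intensity trend, the replicate block, each array left out, and gene means over probes. The number of arrays limits the precision.

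Replicate numbers were taken from the sample titles. The correlations of same-numbered samples' deviations from the population means were 0.433, 0.277 and 0.668, each over 0.1, the mark taken for pairing. Of the samples with unlike numbers, LSC GFP+ 1 with LSC GFP- 2 also passed this mark, at 0.223, and the others were negative. The mark alone therefore does not show that same-numbered samples are paired. The test above has no block, and the fit with the number as a block is an alternative. A gene of a list is read by its brightest tested probe. Positions are mm9, as the array design gives them, and sequences are those printed with the probes; 51 of 55 member probes carry an accession that maps to the same symbol in RefSeq (GRCm38.p6), and no further probe was found through it. Values on all 6 arrays are given for members with a probe past the threshold or without overlap, for all Fgfr1 probes and for Fgf7, Fgf10, Fgfr2, Spry1, Spry2 and Dusp6; list genes are named where they passed, and at most 4 per marker list. The members and lists were chosen with earlier results of these data known. The values of 1 gene of the pathway list are not reported here and not plotted, though it is in the counts.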

Additional observations from a re-analysis of the deposited data

How the results depend on the processing

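The 9 member probes past the threshold kept their direction under all 142 combinations of probe and alternative and passed in 126 of them; the 16 losses were those of Spry2, Fgf21 and the middle Fgfr1 probe. The replicate block moved the counts of member probes to 11 higher and 8 lower, of pathway genes to 11 higher and of all probes to 2495 higher and 2985 lower, and changed no call of a member or pathway gene other than those named with it in the report. In the marker lists it moved the lower counts of the stromal list to 9, adding Fn1, of the neuronal and glial list to 4 and of the urothelial and seminal vesicle list to 4, adding Svs2, Svs4 and Pate4. Leaving out 1 array gave 5 to 6 member probes higher and 3 to 6 lower. The 6 came without LSC GFP+ replicate 1 (adding a probe each of Fgf12, Fgf13 and Fgf14) and without LSC GFP+ replicate 3 (adding a probe of Fgf12 and a pair of Fgf14). The list then gave 5 to 7 higher, and all probes 867 to 1355 higher and 1153 to 2788 lower, the last without LSC GFP+ replicate 1. The 1 probe past the adjusted threshold became 0 under normexp, under each other filter, in the methods' t-test, with the trend and with the block, 3 under quantile or median scaling, and 0 to 4 without 1 array. Between the populations, the coding minus the middle Fgfr1 probe differed by 0.12 under normexp (log2).

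Changes of direction concerned uncalled probes. With single arrays left out, the log2 difference ranged from -0.022 to 0.18 for Fgf6, -0.055 to 0.14 for an Fgf22 probe, -0.023 to 0.49 for an Fgf8 probe, -0.12 to 0.31 for Fgf17, -0.19 to 0.015 for Fgf23, -0.048 to 0.21 for Fgf11, -0.40 to 0.076 for the distal Fgfr1 probe, -0.10 to 0.089 and -0.096 to 0.14 for the Fgfr3 probes, -0.17 to 0.47 for Spred2 and -0.019 to 0.60 for Frs3. Median scaling put an Fgfr3 probe at 0.059, and with the mean over probes Fgf8 was at 0.028 and Fgfr1, at 0.56, turned from its brightest probe. The causes were not tested.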

Other observations

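Probes that hold the repeat ACACACACACAC were bright on these arrays. Their log2 signal relative to the 75th percentile of the array, averaged over the 6 arrays, had a median of 8.28 over 168 probes, with quartiles of 7.05 and 9.11. None of them passed the unadjusted threshold between the populations, against 2925 of all 37005 probes tested. The 59 probes with TTTGTTTGTTTG had a median of 0.70, with quartiles of -1.90 and 2.57, and none of the 54 of these that were tested passed. The Fgf23 probe and the distal Fgfr1 probe are the members among them.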
